A study of Mus musculus with 24 samples.

Results

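The genes of the T cell receptor complex and its first signaling steps were followed through mouse mammary tumors, tumor by tumor. The 9 members, Trac, Cd3e, Cd3g, Cd247, Cd8a, Cd5, Cd6, Lck and Zap70, were chosen by gene symbol, and all 9 were found among the 54532 genes of the tumor count table. Bulk RNA-seq was run on tumors grown from D2.1 or D2A1 cells, mouse mammary cancer lines that arose in BALB/c females, and on the same lines in culture. D2.1 tumors came from 4 BALB/c and 5 SCID-beige mice, D2A1 tumors came from 4 BALB/c and 5 SCID-beige mice, and each line was cultured in 3 replicates. Each tumor was grown in the mammary fat pad of a female aged 8 to 12 weeks and collected at about 500 mm3. BALB/c hosts (Balb/c in the labels) were immunocompetent. SCID-beige hosts (SCID beige in the labels) carry the Prkdc scid mutation, which blocks the joining of antigen receptor segments, and the Lyst beige mutation, which impairs killing by NK cells. Neither line carried a further allele or agent in these groups, and all tumors of a line were grown from that single line. Tumors were matched by volume and not by days after implantation, so time in the host can differ between groups, and its part was not tested. The comparisons ask how much of the receptor transcripts depends on the host's lymphocytes and how the lines differ in the same host.

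On a T cell, the alpha and beta chains bind antigen and the CD3 chains carry the signal inward. LCK, held by the CD4 or CD8 coreceptor, phosphorylates the tyrosine motifs of the CD3 and zeta chains, and ZAP70 then docks on them and phosphorylates its own substrates. Trac, Cd3e, Cd3g, Cd5 and Cd6 are known mainly from T cells, whereas Cd247, Lck and Zap70 are also used by NK cells, and Cd8a is also made by some dendritic cells.

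On GRCm38, Cd3g (chr9:44969572-44980431) and Cd3e (chr9:44998740-45009627) flank Cd3d. Cd5 (chr19:10717116-10739002) lies beside Cd6 (chr19:10789341-10830058) and Cd8a lies at chr6:71373427-71379173. Lck lies at chr4:129548344-129573641, Zap70 at chr1:36761798-36782818, Cd247 at chr1:165788681-165877277 and Trac, which is annotated as a constant segment, at chr14:54220521-54224206. The exons of Cd247 share 3007 bases with Pou2f1 on the opposite strand and 206 with Gm16565 on the same strand. Those of Cd3e share 135 with an antisense gene. Whether counting used the strand is not given in the sources used here, so reads from these partners cannot be told apart. In culture Cd247 held 0 reads in D2.1 cells and at most 1 in D2A1 cells.

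Promoters are shown for 2 CD3 chains and for the 2 kinases, which kept a larger share of their level in D2.1 SCID-beige tumors. Entries for 7 of the 9 members were found in the RefSeq promoter table of GRCm38.p6, which holds 250 bases before and 50 after each start. Cd6 and Trac had no entry. In each line, printed 5′ to 3′ on the gene's strand, capitals mark AGGAAG or CAGGTG on either strand, the cores of the ETS family motif and of an E-box. No marked pair overlapped. The Cd3e sequence is chr9:45009562-45009861 (minus strand), the Cd3g sequence chr9:44980382-44980681 (minus strand), the upstream Lck start chr4:129573592-129573891 (minus strand), the downstream Lck start chr4:129558323-129558622 (minus strand) and the first Zap70 start chr1:36761548-36761847 (plus strand).
Cd3e: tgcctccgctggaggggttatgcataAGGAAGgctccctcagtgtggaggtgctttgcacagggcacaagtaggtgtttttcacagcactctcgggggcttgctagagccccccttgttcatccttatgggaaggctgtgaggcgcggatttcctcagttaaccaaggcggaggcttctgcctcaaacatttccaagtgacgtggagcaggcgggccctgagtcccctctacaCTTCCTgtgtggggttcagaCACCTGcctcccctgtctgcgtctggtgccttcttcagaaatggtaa
Cd3g: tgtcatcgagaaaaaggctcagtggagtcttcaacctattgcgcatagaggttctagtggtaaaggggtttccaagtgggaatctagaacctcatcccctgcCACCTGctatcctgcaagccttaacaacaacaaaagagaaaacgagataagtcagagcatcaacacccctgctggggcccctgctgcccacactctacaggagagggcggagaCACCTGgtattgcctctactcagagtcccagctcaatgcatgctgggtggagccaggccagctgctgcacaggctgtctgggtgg
Lck, upstream start: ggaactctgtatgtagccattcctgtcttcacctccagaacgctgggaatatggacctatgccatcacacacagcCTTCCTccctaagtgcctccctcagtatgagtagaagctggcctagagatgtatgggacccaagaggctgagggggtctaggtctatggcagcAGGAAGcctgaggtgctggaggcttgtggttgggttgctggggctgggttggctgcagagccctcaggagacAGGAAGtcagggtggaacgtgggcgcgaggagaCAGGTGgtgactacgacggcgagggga
Lck, downstream start: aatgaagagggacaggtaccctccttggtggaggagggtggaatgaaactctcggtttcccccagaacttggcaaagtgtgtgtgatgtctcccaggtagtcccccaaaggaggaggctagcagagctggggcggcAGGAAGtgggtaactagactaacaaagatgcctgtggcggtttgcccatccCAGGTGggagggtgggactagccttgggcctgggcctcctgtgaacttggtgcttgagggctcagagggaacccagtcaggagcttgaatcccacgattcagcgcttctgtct
Zap70, first start: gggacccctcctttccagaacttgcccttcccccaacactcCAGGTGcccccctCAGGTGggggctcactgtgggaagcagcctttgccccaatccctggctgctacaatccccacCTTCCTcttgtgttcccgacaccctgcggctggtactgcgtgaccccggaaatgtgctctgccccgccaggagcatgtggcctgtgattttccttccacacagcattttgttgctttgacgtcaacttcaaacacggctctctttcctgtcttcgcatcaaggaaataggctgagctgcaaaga

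AGGAAG was found in 7 of the 10 member promoters (Cd3e, Cd5, Cd247, both of Lck and 2 of 3 of Zap70), and in 35.4% of all 32851 promoters of the table. CAGGTG was found in 8 of 10, and in 20.2% of all. The Cd8a promoter held neither. TGTGGT, the RUNX core, was in 2 of 10 (16.8% of all), CTTTGA, the TCF1 and LEF1 core, in 2 of 10 (16% of all), and AGATAA, the GATA core, in 1 of 10 (11.2% of all). The motifs were chosen with these sequences in view, and a match is a description of the letters only.

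Between 13566949 and 18355153 reads per tumor and 16837260 and 24818234 per culture were counted on genes. Levels are given as CPM, counts scaled to a fixed library total after TMM normalization, and 3 counts, the floor used here, correspond to 0.163 to 0.221 CPM of a tumor’s own total. Of the D2.1 tumors in BALB/c mice, replicate 1 held milk protein transcripts (487 CPM summed over 5 genes, against at most 2.33 in the other 17 tumors) and replicates 1 and 4 held skin transcripts (46.2 and 130 CPM over 6 genes, against at most 4.95 elsewhere). Counts of calls, ratios, the FPKM order and the nearest genes are also given without both. Krt8, a keratin of luminal epithelium, was at 134 to 944 CPM in the tumors, while Epcam, an epithelial adhesion gene, was at most 23.7 CPM in tumors and 0.708 in cultures.

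In culture, 7 of the 9 members were at 3 counts or fewer in at least 5 of 6 libraries. The others were Lck and Trac. Lck had 101, 125 and 67 counts in D2.1 cells and 52, 67 and 33 in D2A1 cells. Trac reached 32 counts in replicate 1 of D2A1 cells, against 1 to 6 in the other 5 cultures. The cells alone thus gave a blank near 0 for Cd3e, Cd3g, Cd247, Cd8a, Cd5, Cd6 and Zap70, and a blank above 0 for Lck and, in D2A1, for Trac. Tumor and culture tables were made with different gene lengths (1142 and 2185 bases for Lck) and hold 54532 and 35275 genes. TMM was also run on each part separately. FPKM are therefore not compared across them, and counts and CPM set side by side are only approximately on one scale.

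In the D2.1 BALB/c tumors every member was detected, and Cd3e, Cd5, Cd6 and Cd8a were at or near 0 in SCID-beige mice. Cd3e, whose product is the epsilon chain of CD3, was at 16.9, 7.95, 22.7 and 20.7 CPM in BALB/c tumors 1 to 4, and at 0.0614, 0.41, 0.0575, 0 and 0 in SCID-beige tumors 1 to 5. Cd3g, the gamma chain, was at 22.2, 12.9, 33.9 and 35.4 CPM in BALB/c tumors, and at 0.184, 1.88, 0.921, 0.239 and 0.315 in SCID-beige tumors. Neither gene overlapped between hosts, and BALB/c tumor 2 was the lowest of its group for all 9 members. Trac, the alpha chain constant segment, was at 10.5, 5.72, 15.8 and 18.4 CPM, against 0.921, 0.528, 0.288, 0.358 and 0 in SCID-beige tumors. Cd247, the zeta chain, was at 9.37, 3.92, 11.5 and 11.9 CPM, against 1.66, 2.99, 0.633, 0.179 and 0.692. Of these 4 members, the zeta chain kept the largest share of its BALB/c mean in D2.1 SCID-beige tumors, 13.4%, against 0.621% for Cd3e, 2.71% for Cd3g and 3.33% for Trac.

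The coreceptor and the regulators followed the CD3 chains. Cd8a, the alpha chain of the coreceptor of cytotoxic T cells, was at 15.5, 9.88, 47.4 and 27.4 CPM in D2.1 BALB/c tumors, and at 0.123, 0.352, 0, 0 and 0.441 in SCID-beige mice. Cd5, a receptor that dampens T cell receptor signals, was at 11.6, 3.61, 9.8 and 14.4 CPM, against at most 0.246. Cd6, its neighbour and relative, was at 16.2, 4.88, 14.4 and 21.2 CPM, and its 5 SCID-beige tumors held 3 reads in all, so that the ratio of the hosts was 398 with an exact 95% counting interval of 136 to 1930. Such intervals cover counting error only.

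**Figure D1:**
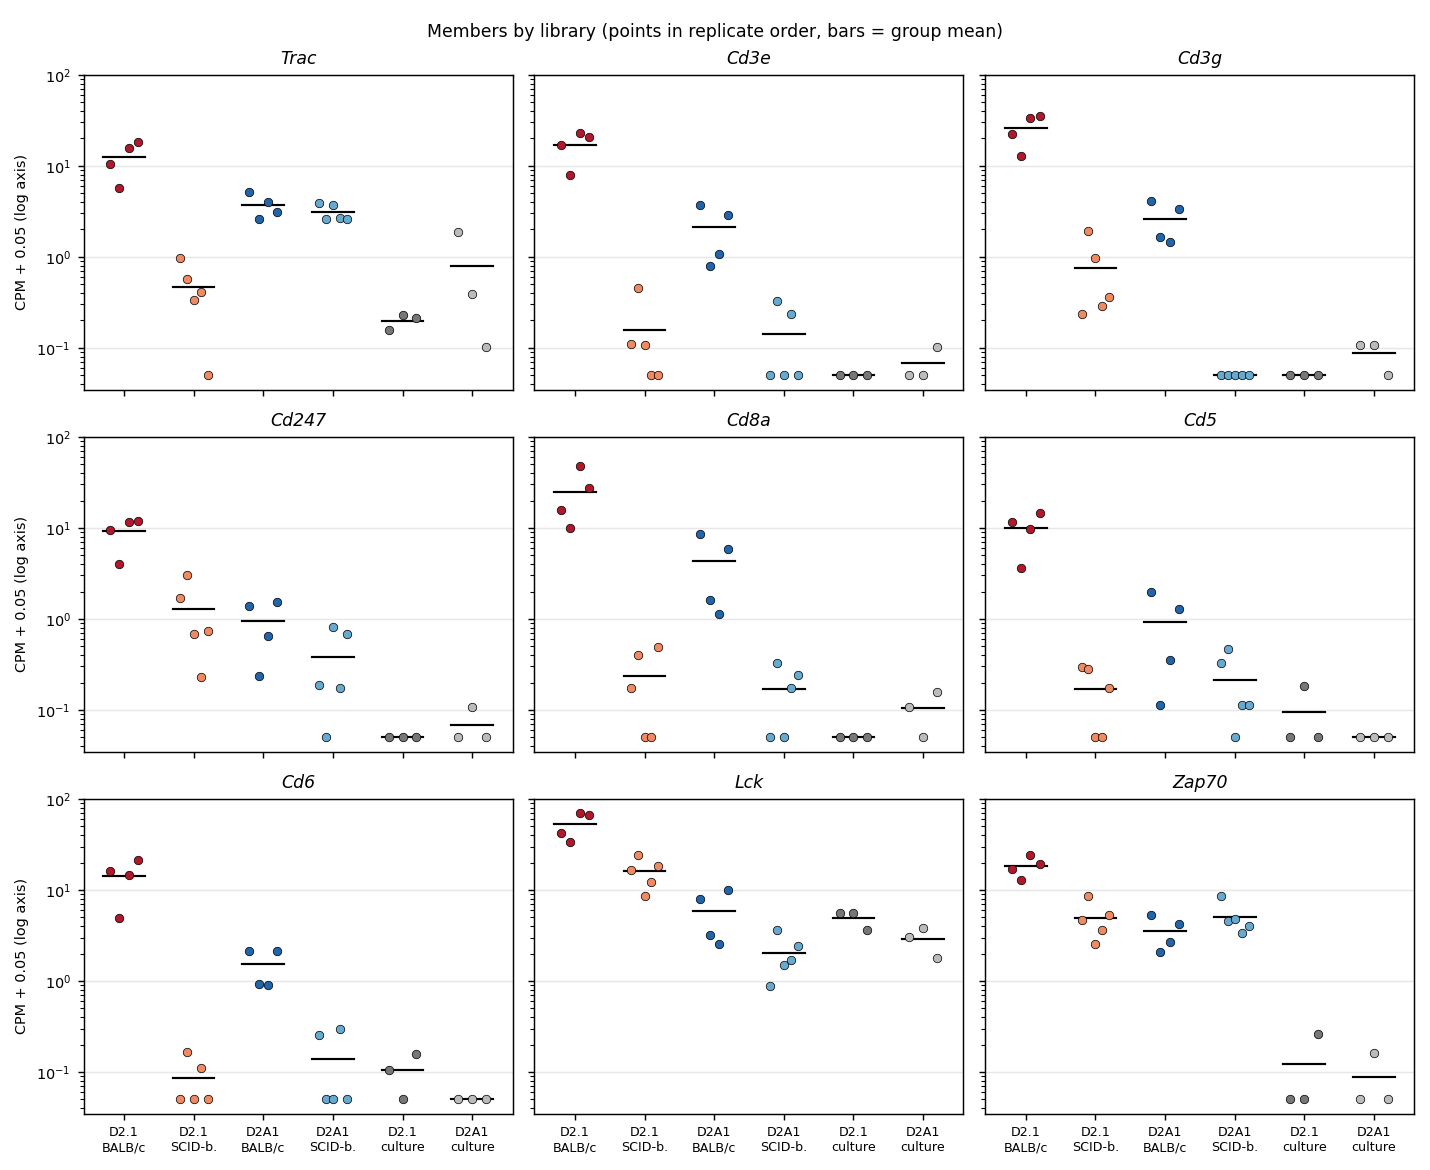
CPM plus 0.05 on a log axis for each of the 9 members, by group (4 BALB/c and 5 SCID-beige tumors of each line, 3 cultures of each line). Points are libraries and bars are group means. For Cd3e, the D2.1 BALB/c tumors sit at 7.95 to 22.7 CPM and all SCID-beige tumors at or below 0.41, whereas Lck and Zap70 stay above the floor in every tumor.

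The kinases kept a larger share of their level. Lck was at 42.7, 33.4, 70.1 and 66.2 CPM in D2.1 BALB/c tumors, and at 16.5, 24, 8.57, 12.3 and 18.4 in SCID-beige mice, 30.1% of the BALB/c mean. Zap70 was at 16.8, 12.7, 23.9 and 19.3 CPM, against 4.67, 8.5, 2.47, 3.58 and 5.29, 27% of the mean. The 2 hosts did not overlap for either kinase. In the same SCID-beige tumors Lck was above its D2.1 cultures (3.59 to 5.53 CPM) and Zap70 was above cultures at 0 to 0.214 CPM, on scales that are only approximately alike.

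By edgeR's quasi-likelihood test, 8 of the 9 members rose in BALB/c over SCID-beige hosts in D2.1 tumors, where 0.891% of the 14929 genes tested were called (0.871% higher and 0.0201% lower in BALB/c). The median log2 fold change over the 9 was 5.22, against -0.01 over all genes tested. Groups did not overlap for all 9 members, against 3.34% of genes tested. The log2 fold change of Cd3e was 7.25 (SE 0.71, adjusted p = 0.00066), that of Cd8a 7.09 (SE 0.74, adjusted p = 0.00093), that of Cd3g 5.22 (SE 0.60, adjusted p = 0.0017) and that of Trac 4.91 (SE 0.64, adjusted p = 0.0037). Cd5 changed by 6.30 (SE 0.71, adjusted p = 0.0015) and Cd6 by 8.39 (SE 0.71, adjusted p = 0.00023), a fitted value that depends on the prior count because Cd6 was near 0. Lck changed by 1.76 (SE 0.31, adjusted p = 0.023) and Zap70 by 1.92 (SE 0.34, adjusted p = 0.025), and Cd247 at 2.92 (SE 0.63) missed the threshold with an adjusted p of 0.053. Without both tumors that held milk protein or skin transcripts, 3 of 9 passed (Cd3e, Cd6 and Cd8a) and the 9 log2 fold changes kept their direction, with 1.71 for Lck and 1.92 for Zap70. Among all genes, 11 of 15672 passed in that fit. Lck and Zap70 also lost the threshold without BALB/c replicate 1 (adjusted p = 0.065 and 0.087), 3 (0.077 and 0.085) or 4 (both 0.087), or without SCID-beige replicate 1 (0.067 and 0.073), 4 (0.051 and 0.053) or 5 (0.052 and 0.063), and Cd247 passed it without BALB/c replicate 2 (0.024) or SCID-beige replicate 2 (0.029). In bulk RNA, fewer cells of a type and less RNA per cell cannot be told apart.

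Markers of other cells were read in the same D2.1 comparison, where 1 of 10 NK cell genes (Ncr1), 2 of 8 B cell genes and 1 of 7 lymph node stroma genes (Cxcl13) rose. The filter left 8, 5 and 1 of these to test, and 0.871% of all genes tested rose. Of 6 dendritic cell genes none passed by edgeR, with 4 at an unadjusted p under 0.05 and 2 called by DESeq2, which called 588 of 18831 genes. The summed level of 10 NK cell genes was 93.4 to 152 CPM in BALB/c and 32.5 to 90.6 in SCID-beige tumors, and 1 of the 10, Klra8, was at 0 in both. Ncr1, the NKp46 receptor, was at 17.7 to 25.3 and 4.29 to 10.8 CPM. The summed level of 8 B cell genes was 52.1, 15.3, 40 and 136 CPM in BALB/c tumors 1 to 4 and 7.81 to 17.9 in SCID-beige tumors, so that BALB/c tumor 2 lay within the SCID-beige range. Of 7 lymph node stroma genes, Ccl21a and Ccl19, which define the T cell zone, were at 0 in all 18 tumors. Whether reads could be assigned to them was not tested, so nothing is read from these zeros. The sum of 27.5 to 99.9 CPM in BALB/c tumors was nearly all Cxcl13 (27.3 to 93 CPM), against 3.17 to 6.04 in SCID-beige tumors. The other list genes were low but went the same way as Cxcl13. Cr2 reached 66 reads, Madcam1 26, Tnfsf11 17 and Chst4 13 in a BALB/c tumor, against at most 1, 4, 1 and 0 in SCID-beige tumors. Lymph node tissue in a BALB/c sample was not tested. Dendritic cell genes summed to 81.3 to 105 and 37.4 to 65.6 CPM. The part of these cells in the members' levels was not tested.

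D2A1 BALB/c tumors held the same genes at a lower level. Cd3e was at 3.65, 0.743, 1.03 and 2.83 CPM in BALB/c tumors 1 to 4, and at 0, 0.278, 0, 0.185 and 0 in SCID-beige tumors 1 to 5. Cd3g was at 4.06, 1.61, 1.39 and 3.27 CPM, and no read was counted in any of the 5 SCID-beige tumors, which puts BALB/c tumors at least 67.2-fold higher against a floor of 3 counts over the group. Both genes separated the hosts completely. Cd8a was at 8.52, 1.55, 1.09 and 5.88 CPM against at most 0.278, and Cd6 at 2.09, 0.866, 0.845 and 2.11 against at most 0.247. Cd5 was at 1.91, 0.0619, 0.302 and 1.22 CPM against 0.275, 0.417, 0, 0.0618 and 0.063, so that BALB/c tumors 2 and 3 lay within the SCID-beige range. BALB/c tumors 1 and 4 were above tumors 2 and 3 for 8 of 9 members, Trac being the exception.

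Trac and Zap70 did not separate the hosts in D2A1 tumors. Trac was at 5.16, 2.54, 3.98 and 3.05 CPM in BALB/c tumors and at 3.85, 2.57, 3.69, 2.6 and 2.58 in SCID-beige tumors, 83.1% of the BALB/c mean. Zap70 was at 5.27, 2.04, 2.66 and 4.16 CPM in BALB/c tumors and at 8.59, 4.51, 4.74, 3.34 and 3.97 in SCID-beige tumors, 142% of the mean. Cultures of both lines held at most 4 reads of Zap70. Cd247 was at 1.33, 0.186, 0.603 and 1.5 CPM against 0.138, 0, 0.767, 0.124 and 0.63. Lck was at 7.88, 3.16, 2.53 and 9.82 CPM against 0.825, 3.54, 1.46, 1.67 and 2.4, a range that the D2A1 cultures (1.76 to 3.8 CPM) shared.

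In D2A1 tumors, 4 of the 9 members rose in BALB/c hosts, where 1.17% of the 14572 genes tested were called (0.906% higher and 0.261% lower in BALB/c). These were Cd3g (log2 fold change 8.37, SE 0.92, adjusted p = 0.011, a fitted value against a group at 0), Cd8a (5.08, SE 0.85, adjusted p = 0.017), Cd3e (4.37, SE 0.88, adjusted p = 0.038) and Cd6 (3.90, SE 0.82, adjusted p = 0.046). They were also the 4 whose groups did not overlap, against 3.37% of genes tested. Lck (1.57, SE 0.48, adjusted p = 0.19), Cd247 (1.44, SE 0.83, adjusted p = 0.69), Trac (0.27, SE 0.29, adjusted p = 0.90) and Zap70 (-0.50, SE 0.36, adjusted p = 0.79) did not pass, and Cd5 did not pass the filter on low counts. The number of calls changed with the tumors left out, while the log2 fold changes stayed at 8.05 to 8.55 for Cd3g, 4.49 to 5.57 for Cd8a, 3.94 to 5.18 for Cd3e and 3.58 to 4.66 for Cd6. None of the 9 passed without BALB/c replicate 4 (edgeR, with 5 at an unadjusted p under 0.05), 5 passed with DESeq2 on all tumors, 1 passed without BALB/c replicate 1 or SCID-beige replicate 4, 2 passed without SCID-beige replicate 1, 3 or 5, and 3 passed without any other tumor. Among all genes, 27 of 14874 passed without BALB/c replicate 4 and 518 of 17779 with DESeq2.

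**Figure D2:**
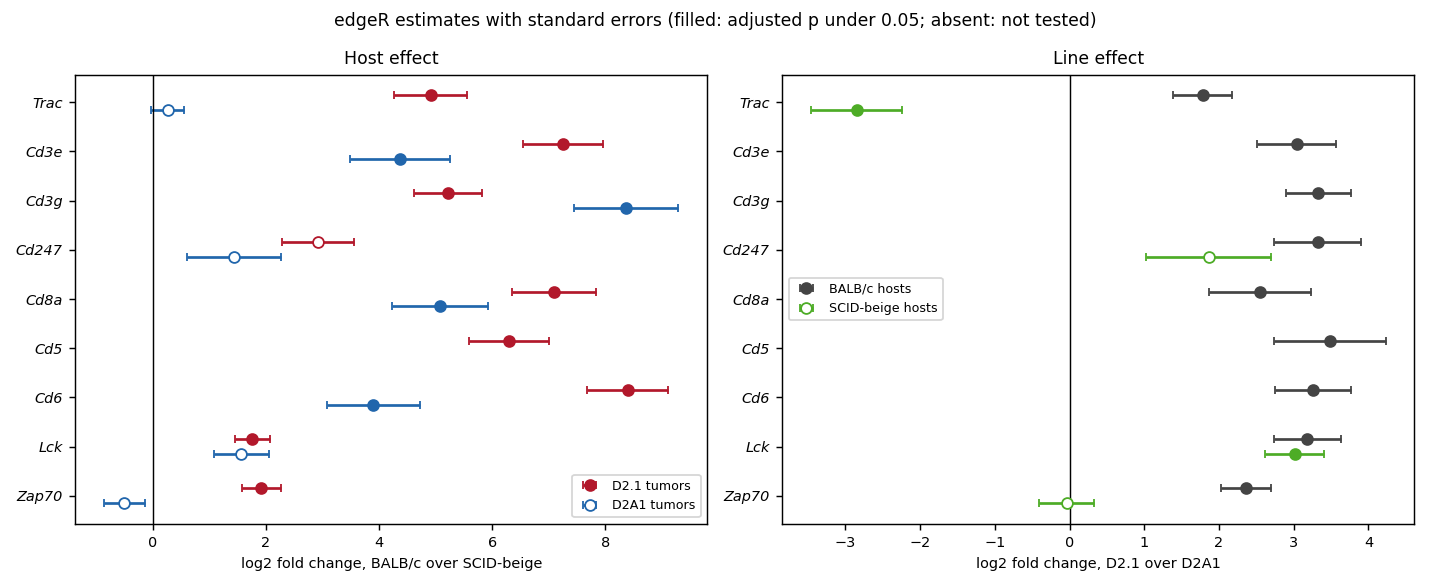
edgeR log2 fold changes with standard errors for the 9 members. The left panel gives BALB/c over SCID-beige in each line and the right panel D2.1 over D2A1 in each host. Filled points have an adjusted p under 0.05, and genes under the filter on low counts have no point. Trac is at 4.91 in D2.1 and 0.27 in D2A1 for the host, and at 1.78 in BALB/c and -2.85 in SCID-beige for the line.

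The difference between the host effects was tested over all 18 tumors. Trac alone of the 9 members passed, with a host effect larger by 4.61 on the log2 scale in D2.1 tumors (SE 0.71, adjusted p = 0.017), where 0.0187% of the 16036 genes tested passed. It lost the threshold without BALB/c replicate 3 or 4 of D2.1 (adjusted p = 0.054 and 0.072), without SCID-beige replicate 2 of D2.1 (0.052), without BALB/c replicate 1, 2, 3 or 4 of D2A1 (0.056, 0.056, 0.069 and 0.074), and without both D2.1 tumors that held milk protein or skin transcripts (0.22), with a difference of 4.37 to 4.82 in these fits. Zap70 had a difference of 2.40 (SE 0.52, adjusted p = 0.12), Cd6 of 4.45 (SE 1.31, adjusted p = 0.33) and Lck of 0.17 (SE 0.60, adjusted p = 0.97).

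Between the lines in BALB/c mice, all 9 members were higher in D2.1 tumors. Trac had the smallest difference, 1.78 (log2, SE 0.39, adjusted p = 0.0057), and Cd5 the largest, 3.48 (SE 0.75, adjusted p = 0.0055). The CD3 chains were close to each other, with 3.04 (SE 0.53, adjusted p = 0.0015) for Cd3e, 3.33 (SE 0.44, adjusted p = 0.00029) for Cd3g and 3.32 (SE 0.58, adjusted p = 0.0016) for Cd247. Lck differed by 3.18 (SE 0.45, adjusted p = 0.00046), Cd6 by 3.26 (SE 0.51, adjusted p = 0.0008), Cd8a by 2.55 (SE 0.68, adjusted p = 0.015) and Zap70 by 2.36 (SE 0.34, adjusted p = 0.0005). No member overlapped between the lines. In this comparison 32.6% of the 14953 genes tested were called (16.8% higher and 15.8% lower in D2.1) and 17.1% did not overlap in that direction, and the median over the 9 was 3.18 against -0.02 over all genes. The 9 calls held without each tumor in turn and without both tumors that held milk protein or skin transcripts. NK cell genes summed to 15 to 36.6 CPM and B cell genes to 1.3 to 2.72 CPM in the D2A1 tumors, below the D2.1 tumors in each case, and their part in the difference was not tested.

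In SCID-beige mice, 2 of the 9 members differed between the lines, with Lck higher and Trac lower in D2.1 than in D2A1 tumors. Lck differed by 3.01 (log2, SE 0.39, adjusted p = 5.7e-05) and Trac by -2.85 (SE 0.61, adjusted p = 0.0027), and the tumors of the lines overlapped for neither. Of the 14355 genes tested, 32.1% were called (17.2% higher and 14.8% lower in D2.1). With D2.1 higher, 12.7% of genes tested did not overlap, and the share with D2.1 lower was not counted. Cd247 (1.86, SE 0.84, adjusted p = 0.11) and Zap70 (-0.04, SE 0.37, adjusted p = 0.94) did not pass. Cd3e, Cd5, Cd6 and Cd8a did not pass the filter, each with at most 7 counts in a SCID-beige tumor. Cd3g did not pass either, with 3, 32, 16, 4 and 5 counts in D2.1 tumors and 0 in each D2A1 tumor, which is at least 17.5-fold higher in D2.1 against a floor of 3 counts over the group. NK cell genes summed to 8.65 to 20.3 CPM in these D2A1 tumors, most of it Eomes (6.8 to 16.6 CPM), a gene that D2A1 cultures held at 27.2 to 32.4 CPM, and Ncr1 was at 0 to 0.619 CPM against 4.29 to 10.8 in D2.1 tumors.

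Other genes of the receptor, its coreceptors and costimulators were read beside the members. In D2.1 tumors, 6 of 11 rose with the BALB/c host, led by Cd8b1 (6.24, SE 0.64, adjusted p = 0.00093), the beta chain of CD8, and Cd3d (6.14, SE 0.65, adjusted p = 0.00093), the delta chain of CD3, then Trbc2 (3.89, SE 0.47, adjusted p = 0.0024) and Icos (3.22, SE 0.51, adjusted p = 0.015), a costimulatory receptor. Trbc1 at 1.90 (adjusted p = 0.063), Cd4 at 1.63 (adjusted p = 0.066), a coreceptor that macrophages and dendritic cells can also make, and Trdc at 1.09 (adjusted p = 0.42) did not pass. In D2A1 tumors, 2 of 11 rose, Cd8b1 (4.85, SE 0.83, adjusted p = 0.018) and Trbc2 (4.49, SE 0.95, adjusted p = 0.046). Only 5 of the 11 passed the filter on low counts there, against 10 in D2.1 tumors, so the 2 counts of calls are not alike. Cd3d, under the filter in D2A1 tumors, held 75 reads in BALB/c and 2 in SCID-beige mice, a ratio of 42.5 (exact 95% counting interval 11.4 to 357). Between lines in BALB/c mice 10 of 11 were higher in D2.1, with Cd2 (4.69, SE 0.37, adjusted p = 1e-05), an adhesion receptor, and Cd4 (4.20, SE 0.36, adjusted p = 1.8e-05) in front. In SCID-beige mice 5 of 11 were still higher in D2.1, with 6 tested, among them Trbc1 (4.95, SE 0.73, adjusted p = 0.00017) and Cd2 (3.76, SE 0.57, adjusted p = 0.00023). Of all genes tested, 0.871% rose with the BALB/c host in D2.1 and 0.906% in D2A1 tumors. Those higher in D2.1 were 16.8% in BALB/c and 17.2% in SCID-beige mice.

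Of 32 other proximal signaling genes, 9 rose with the BALB/c host in D2.1 tumors and 2 in D2A1 tumors. The filter left 32 and 25 of them to test, and 0.871% and 0.906% of all genes tested rose. In D2.1 tumors Lat, the adaptor that ZAP70 phosphorylates, changed by 3.68 (SE 0.48, adjusted p = 0.0035), and Sit1, a membrane adaptor, by 2.85 (SE 0.59, adjusted p = 0.046). Themis, a T cell adaptor, held 192 reads in BALB/c and 1 in SCID-beige tumors, a ratio of 238 with an exact counting interval of 42.2 to 9450, and Trat1, which stabilizes the receptor, held 108 reads against 0, at least 44.6-fold higher. In D2A1 tumors Grap2, an adaptor that bridges to SLP-76, changed by 1.89 (SE 0.40, adjusted p = 0.045). Between lines 20 of 32 were higher in D2.1 in BALB/c mice (16.8% of all genes tested) and 15 of 32 in SCID-beige mice (17.2% of all), where Itpkb (-0.65, SE 0.16, adjusted p = 0.006) and Cblb (-0.50, SE 0.16, adjusted p = 0.025), a ubiquitin ligase that restrains the pathway, were lower. Counts of these 2 lists together without both D2.1 tumors that held milk protein or skin transcripts were 2 in place of 15 for the host in D2.1 and 28 in place of 30 for the line in BALB/c mice. Among all genes, those fits called 11 of 15672 and 3350 of 15720. The 15 became 5, 6 or 7 without BALB/c replicate 1, 3 or 4, and 9 without SCID-beige replicate 1, and the 4 of the host in D2A1 became 0 without BALB/c replicate 4, 1 without BALB/c replicate 1 or SCID-beige replicate 1, and 2 without BALB/c replicate 2 or SCID-beige replicate 4 or 5.

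None of 22 distal genes of the pathway, which most cells express, passed for the host in either line by edgeR, with medians of 0.03 in D2.1 and 0.11 in D2A1. At an unadjusted p under 0.05 there were 2 in each line, and DESeq2 called 0 in D2.1 and 1 in D2A1. Between lines in BALB/c mice 8 of 22 were higher in D2.1 and 2 lower, against 32.6% of all genes called, led by the immediate early genes Egr1 (1.79, SE 0.19, adjusted p = 6.6e-05) and Egr2 (1.56, SE 0.21, adjusted p = 0.00033), and in SCID-beige mice 8 were higher and 1 lower, against 32.1%. Both shares are near enough to those of all genes that nothing is read from them. Of 8 genes that mark T cell stages, Rag1 and Rag2, the recombinase of immature lymphocytes, were at 0 in all 18 tumors.

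Constant and variable segments of the receptor were compared after their values had been seen, so these are descriptions. A mature alpha or beta transcript holds a variable segment joined to a constant one. The 130 alpha and beta variable segments together held 227, 64, 229 and 301 reads in D2.1 BALB/c tumors and 48, 10, 9 and 51 in D2A1 BALB/c tumors. In SCID-beige mice they held 1, 4, 3, 0 and 0 reads in D2.1 tumors and 0, 4, 0, 0 and 0 in D2A1 tumors. The alpha and beta variable segments were therefore at the level of the cultures (1 to 3 reads) in SCID-beige tumors of both lines. Constant segments did not follow in each case. Trbc1 and Trbc2 together held 148, 265, 82, 66 and 152 reads in the D2.1 tumors of SCID-beige mice and 6, 7, 1, 6 and 4 in D2A1 tumors, while Trac held 15, 9, 5, 6 and 0 in D2.1 tumors and 56, 37, 53, 42 and 41 in D2A1 tumors. Per 100 reads of the beta constant segments, beta variable segments held 16.1 in D2.1 and 24.7 in D2A1 BALB/c tumors, and 0.421 and 0 in SCID-beige mice. Per 100 Trac reads, alpha variable segments held 31.4 and 17.5 in BALB/c and 14.3 and 1.75 in SCID-beige mice. The last values rest on 5 reads over 35 of Trac and on 4 over 229, and without SCID-beige replicate 2 of each line, which held 4 reads in each case, they were 3.85 and 0. The 3 beta variable reads of D2.1 SCID-beige tumors were all in replicate 3, and the value without it was 0. The 12 gamma and delta variable segments held 8, 18, 0, 0 and 16 reads in D2.1 and 0, 0, 0, 0 and 2 in D2A1 SCID-beige tumors. They held 35, 37, 113 and 73 reads in D2.1 and 6, 5, 2 and 1 in D2A1 BALB/c tumors, and at most 1 in cultures. Gamma constant segments held 22, 68, 6, 8 and 66 reads in D2.1 SCID-beige tumors and at most 1 in those of D2A1. Variable segments of one family share sequence, and Trbc1 and Trbc2 are close copies, so single segments are uncertain.

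**Figure D3:**
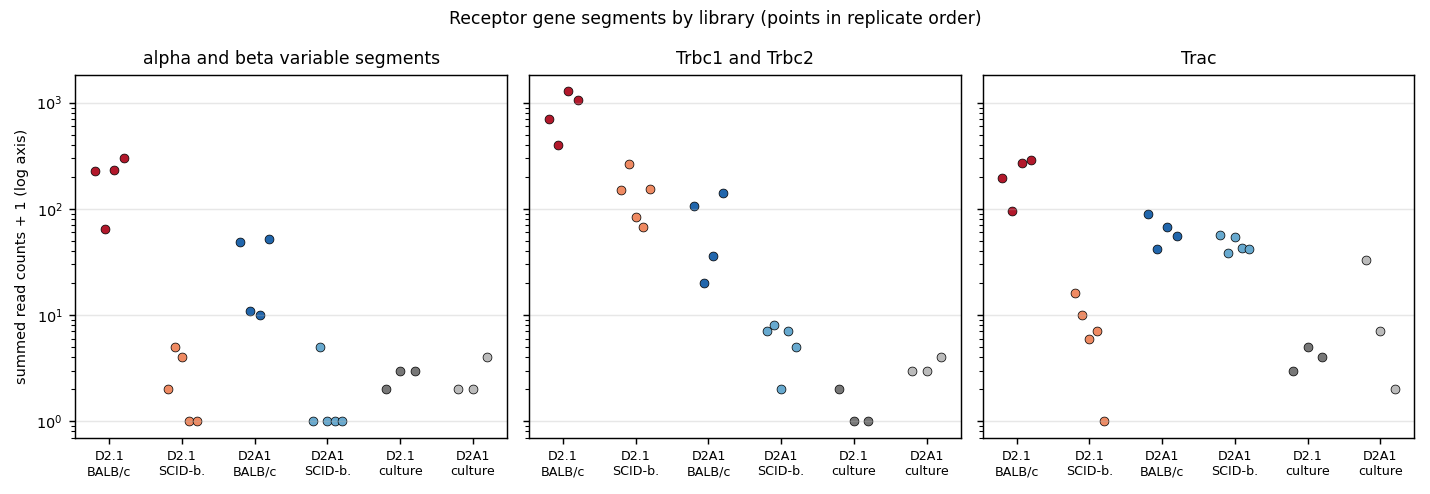
Summed read counts plus 1 on a log axis for alpha and beta variable segments, for Trbc1 with Trbc2, and for Trac, by library. Points are libraries. Alpha and beta variable segments are at 4 reads or fewer in all SCID-beige tumors, while the beta constant segments reach 265 in D2.1 and Trac 56 in D2A1 SCID-beige tumors.

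Within BALB/c tumors the balance of the members was compared through ratios of counts, which do not depend on library scaling. The log2 ratio of Cd8a to Cd3e was -0.12, 0.31, 1.06 and 0.41 in D2.1 tumors 1 to 4 (mean 0.41, SD 0.49, n = 4) and 1.22, 1.03, 0.08 and 1.05 in D2A1 tumors (mean 0.84, SD 0.52, n = 4). The difference of -0.43 was within the spread (p = 0.343, 2-sided exact permutation test, smallest possible p 0.0286). Without D2.1 tumors 1 and 4 it was -0.16. With Cd8b1 in place of Cd8a the difference was -0.45 (p = 0.171, exact permutation test). With Trac in place of Cd3e it was 1.10 (p = 0.257, exact permutation test). In D2A1 SCID-beige tumors Trac stayed at 83.1% of its BALB/c mean and Cd3e at 4.49%. Ratios with Trac are therefore not read as a balance among T cells. The log2 ratio of Trac to Cd3e itself was -0.68 to -0.17 in D2.1 tumors and 0.11 to 1.93 in D2A1 tumors, highest in D2A1 tumors 2 and 3, and those of Lck to Cd3e (1.34 to 2.07 and 1.10 to 2.04) and Cd6 to Cd3e (-0.70 to 0.04 and -0.80 to 0.21) covered similar ranges in both lines. Cd4 to Cd3e ran from -0.61 to 0.91 in D2.1 and from -1.63 to 0.49 in D2A1 tumors.

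**Figure D4:**
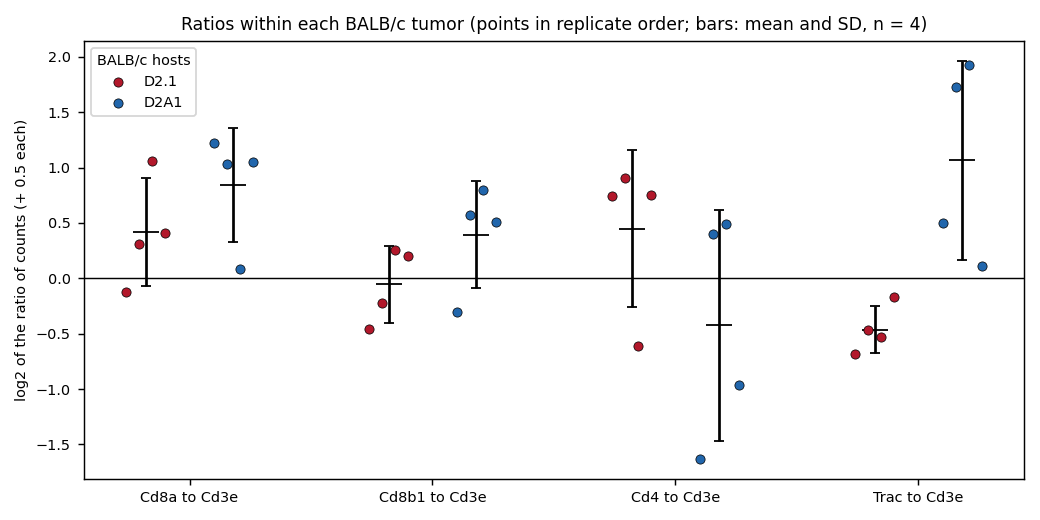
Log2 ratios of counts, 0.5 added to each, within each of the 4 BALB/c tumors of each line. Points are tumors and bars are the mean and SD. Cd8a to Cd3e overlaps between lines (means 0.41 and 0.84), whereas every D2A1 tumor is above every D2.1 tumor for Trac to Cd3e. In D2A1 tumors of SCID-beige mice, not shown here, Trac stayed at 83.1% of its BALB/c mean.

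Levels were compared between members per length, as the deposited FPKM (reads scaled by gene length and library total). In D2.1 BALB/c tumors Lck stood first at 45.8 FPKM (SD 15.1, n = 4), above Cd3g in 4 of 4 tumors. Cd3g (19.4, SD 7.69), Trac (18.4, SD 7.96), Zap70 (14.8, SD 3.86) and Cd3e (13.7, SD 5.22) followed, each above the next in 3 of 4 tumors and within its spread. Cd3e was above Cd8a in 4 of 4, and Cd8a (9.20, SD 6.12), Cd6 (7.26, SD 3.43), Cd247 (5.15, SD 2.04) and Cd5 (4.69, SD 2.14) came last. In D2.1 tumors of SCID-beige mice Lck (13.6 FPKM, SD 4.93, n = 5) exceeded Zap70 (3.93, SD 1.80), and Zap70 exceeded Cd247 (0.68, SD 0.613), in 5 of 5 tumors. In D2A1 tumors Trac and Lck led in BALB/c mice at 5.67 (SD 1.91) and 5.36 FPKM (SD 3.36), not apart from each other, and Trac (4.59, SD 1.01) and Zap70 (4.17, SD 1.60) led in SCID-beige mice, also not apart. Without tumors 1 and 4 the order in D2.1 BALB/c tumors was the same, from 44.9 FPKM for Lck to 3.21 for Cd5.

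The members were followed most closely across the 18 tumors by Cacna1e, Ctla4, Ccr8, Themis, Foxp3, Izumo1r, Cd3d, 5830411N06Rik, Lat and Cd163l1, in that order. Likeness was the mean absolute distance between a gene's centred log2 CPM and the mean of the members, and it ran from 0.42 to 0.74 for these 10, against a median of 1.77 over 13756 protein-coding genes. Without D2.1 BALB/c tumors 1 and 4, 8 of the 10 were again among the first 10, with Tap1 and Igtp in place of Lat and Cd163l1. The members themselves lay at 0.51 (Cd5) to 1.29 (Trac). Foxp3, the transcription factor of regulatory T cells, was at 7.39 CPM (SD 0.726, n = 4) in D2.1 and 1.13 (SD 0.598, n = 4) in D2A1 BALB/c tumors, and at 0.11 (SD 0.135, n = 5) and 0.0929 (SD 0.0609, n = 5) in SCID-beige mice. Cacna1e, a calcium channel subunit, was at 2.54 CPM (SD 1.21) and 0.276 (SD 0.111) in BALB/c mice and at 0.11 (SD 0.125) and 0 in SCID-beige mice. Genes of low count can lie near the members because the log2 scale is compressed by its prior count of 2.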

How the data were processed

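RNA was taken from whole snap-frozen tumors and from cultured cells, and libraries were sequenced on an Illumina NovaSeq by Novogene. The authors used Novogene's standard pipeline or GENAVi, and the submitters' processing notes name STAR and mm10. The counting program, annotation and strand setting are not given in the sources used here. The tables deposited by the authors give raw counts, 1 whole number per gene and library. The deposited FPKM values equal counts divided by gene length and library total, checked within 1% on 100% of values. Groups were taken from the labels of all 24 libraries. None of 32 pairs of replicate tumors were copies (chi-square per degree of freedom of at least 18.6). Replicates 1 and 2, and 3 and 4, were the closest pairs of D2A1 BALB/c tumors (18.6 and 23.5, against 41.8 to 84.8). The same pairs were closest in D2.1 BALB/c (37.5 and 28.1, against 56.1 to 91.7) and D2A1 SCID-beige tumors (18.8 and 19.4). In D2.1 SCID-beige tumors, 1 and 2 were at 27.2 but 3 and 4 at 87.6. The tests did not model this split. Nothing in the labels says more than that tumors are separate samples, so p-values measure the spread between them.

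Symbols and positions came from GENCODE M21 (GRCm38) and promoters from RefSeq. Counts were tested with edgeR 4.0.16 in R 4.3.3 (TMM, default expression filter, robust quasi-likelihood fit, Benjamini-Hochberg over all genes tested, threshold 0.05) on the groups compared, or on all 18 tumors for the interaction. SE is the log2 fold change divided by the square root of F. The procedure was tested on simulated data. Ratios were tested by exact permutation with scipy 1.17.1. A group of 0 counts was set to 3 counts over the group. Members and lists were chosen with earlier results of these data known. All members are named. Of each list, counts are given with up to 4 of the largest calls and genes needed to explain a count, and the 10 nearest protein-coding genes are named. Values of some list genes are not reported here. Trgc1, Trgc2 and Fdcsp were not matched by symbol, and Gads, an older name of Grap2, was not counted again.

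Same-numbered tumors of the lines in BALB/c mice deviated together (correlations across genes of 0.1004 to 0.4907), but no source gives a shared batch. The main tests used no replicate block, and the numbers entered only as an alternative. Alternatives were DESeq2 1.42.0, its size factors, no filter, at least 10 counts, 1 fit of all tumors, the replicate block and leaving out each tumor. Leaving out both tumors with milk protein or skin transcripts was chosen after seeing the data.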

Additional observations from a re-analysis of the deposited data

Results flagged for a closer look

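Among 34 sets of 4 or 5 tumors, 1 per member and group with any tumor above 3 counts, 2 held a tumor far from the others, and chance gives about 1 in 20. Cd3e in D2.1 SCID-beige replicate 2 was at 0.41 CPM (7 reads), against 0.0614 in the next tumor, and this tumor was also the highest of its group for 6 of 9 members. Zap70 in D2A1 SCID-beige replicate 1 was at 8.59 CPM (125 reads), against 4.74 in the next.

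Trac was the only member whose host effect passed as different between the lines by edgeR, by 4.61 on the log2 scale (SE 0.71, adjusted p = 0.017). It lost the threshold in 7 of 18 fits that left out 1 tumor, and DESeq2, which called 92 of 17352 genes, also called Cd6 and Zap70. Trac was higher in BALB/c hosts in 4 of 4 D2.1 tumors, while the hosts overlapped in D2A1 tumors.

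Lck gave reads in cultured cells, which entered no test. The lowest counts were 67 in D2.1 and 33 in D2A1 cultures, above the floor of 3 counts in 6 of 6 libraries.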

How the results depend on the processing

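Of 675 refits of single members, 608 kept direction and side of the threshold, 61 changed side and 6 reversed. The reversed values were near 0: Zap70 between lines in SCID-beige mice was 0.12 and 0.01 without D2.1 SCID-beige replicate 3 and 4 and 0.20 without D2A1 SCID-beige replicate 1 (-0.36 to 0.20 over all such refits), and the Lck interaction was -0.04 and -0.08 without D2A1 BALB/c replicate 2 and 3 and -0.14 without D2A1 SCID-beige replicate 2 (-0.14 to 0.56). Cd8a between lines in BALB/c mice missed the threshold without a filter on low counts (adjusted p = 0.064, edgeR). With each tumor left out in turn, members called were 6 to 9 for the host in D2.1, 0 to 3 for the host in D2A1, 9 for the line in BALB/c mice, 2 for the line in SCID-beige mice and 0 to 1 for the interaction, and other pathway genes called were 5 to 19, 0 to 5, 28 to 31 and 18 to 26. Calls among all genes ran from 26 to 314, 27 to 172, 4074 to 5046, 3969 to 4916 and 0 to 12, in the same order. DESeq2 called 24 other pathway genes for the host in D2.1 and 12 in D2A1, and 3 members (Trac, Cd6, Zap70) for the interaction. Among all genes it called 588 of 18831, 518 of 17779 and 92 of 17352, against 133, 170 and 3 in the main fits. No filter gave 7 and 1 fit of all tumors 10 other pathway genes for the host in D2A1, where they called 236 of 26561 and 239 of 16036 genes. Without both D2.1 tumors with milk protein or skin transcripts, chosen after seeing the data, host calls in D2.1 were 3 members and 2 other genes and the interaction 0 (edgeR, with 4 members at an unadjusted p under 0.05). Calls among all genes were then 11 of 15672 for the host in D2.1 and 0 of 16894 for the interaction.

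Replicate numbers as a block gave 9 members and 32 other genes for the line in BALB/c mice and changed no call of a member there, although only 3 of 8 of these tumors correlated best with their own number. Of all 14953 genes tested, 7116 were called with the block, against 4868 without it. In the other comparisons, too, tumors are known to share only a number (correlations of -0.198 to 0.1692, -0.4407 to -0.1873 and -0.1605 to 0.3443), and 1 of 8, 0 of 8 and 7 of 10 tumors correlated best with their own number. With the block, in which replicate 5 of SCID-beige mice has no partner in a host comparison, calls were 4 members and 2 other genes for the host in D2.1, 0 and 0 for the host in D2A1 (edgeR, with 5 members at an unadjusted p under 0.05), and 2 and 23 for the line in SCID-beige mice. Of all genes tested, the block called 14 of 14929, 0 of 14572 and 5311 of 14355 in these comparisons, in that order. The Cd8a to Cd3e difference was -0.43 as a paired difference (p = 0.5, exact sign flips), -0.68 to -0.25 with each tumor left out, -0.16 without both D2.1 tumors with milk protein or skin transcripts, and 1.10 with Trac in place of Cd3e. The cause of these changes was not tested. Depth limits members in SCID-beige tumors, where most lie at a few reads.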
